A study of Homo sapiens with 12 samples.

Results

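The Notch pathway was examined through 10 listed genes, chosen by name: the ligands JAG1 and JAG2, the receptors NOTCH1 and NOTCH3, the Fringe glycosyltransferase LFNG, the DNA-binding factor RBPJ with its coactivators MAML1 and MAML2, and the target genes HES1 and HEY1. A gene was measured where a probe set of the array carried its symbol and no other, and the brightest such probe set over all arrays stood for it. This gave values for 9 of the 10, out of 18404 genes in all. MAML1 had 2 probe sets, both shared with the symbol LTC4S, so it has no value here.

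The samples were tumour spheroids of HepG2, an established line of human liver tumour cells, grown in stirred flasks for 10 days. There were 12 arrays in 3 groups of 4: wild type cells, cells with knockdown of HIF-1α, the hypoxia-inducible factor subunit encoded by HIF1A, and cells with knockdown of HIF-2α, encoded by EPAS1. Medium with fetal calf serum was common to all groups. RNA went through an amplification kit applied to 250 microdissected cells. The means of knockdown, a control construct in the wild type cells and the number of clones behind each group were not stated in the labels; the sample descriptions carry the codes sh1alpha and sh2alpha. The labels number the 4 arrays of a group as replicates and do not say whether these came from separate cultures.

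Notch signalling passes between touching cells. A Jagged or Delta ligand on one cell pulls on a Notch receptor on the next, proteases then release the receptor's intracellular part, and that part enters the nucleus and joins RBPJ and a Mastermind-like coactivator, such as MAML2, on DNA. Genes of the HES and HEY families are the classical targets, and they encode basic helix-loop-helix repressors. In liver, JAG1 and Notch receptors are known for directing bile duct development.

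RefSeq promoter windows were matched for 9 of the 10 genes, not for HEY1. Because JAG1, MAML2 and HES1 are among the 4 genes called below and stand for the ligand, coactivator and target steps, the 250 bases before their RefSeq transcription starts (GRCh38.p14) are shown 5′ to 3′ on the gene's strand. Capitals mark ACGTG and GCGTG, the core letters of HIF binding sites, and TGGGAA, the core letters of RBPJ sites, each searched on both strands. The windows lie at chr20:10674000-10674249 (minus strand) for JAG1, chr11:96343196-96343445 (minus strand) for MAML2 and chr3:194135898-194136147 (plus strand) for HES1.
JAG1: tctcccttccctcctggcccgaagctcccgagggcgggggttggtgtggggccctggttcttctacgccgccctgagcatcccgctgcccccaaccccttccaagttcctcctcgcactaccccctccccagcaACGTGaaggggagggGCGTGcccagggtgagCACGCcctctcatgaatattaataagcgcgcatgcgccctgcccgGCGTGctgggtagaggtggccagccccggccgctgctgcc
MAML2: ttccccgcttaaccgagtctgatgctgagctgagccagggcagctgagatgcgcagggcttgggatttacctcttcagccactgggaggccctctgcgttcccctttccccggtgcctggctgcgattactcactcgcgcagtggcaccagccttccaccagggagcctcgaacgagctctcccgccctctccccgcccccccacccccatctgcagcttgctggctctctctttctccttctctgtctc
HES1: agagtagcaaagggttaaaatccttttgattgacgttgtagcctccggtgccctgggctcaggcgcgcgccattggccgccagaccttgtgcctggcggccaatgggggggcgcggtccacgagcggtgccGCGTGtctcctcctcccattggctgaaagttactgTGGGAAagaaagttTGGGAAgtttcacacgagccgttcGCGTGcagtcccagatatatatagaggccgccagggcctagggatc

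The HES1 window held 2 copies of TGGGAA, beginning 84 and 70 bases before the start, and 2 of GCGTG. The JAG1 window held 1 ACGTG, beginning 116 bases before the start, and 3 GCGTG. The MAML2 window held none of the 3 motifs. No match overlapped another. GCGTG also occurred in the windows used for the uncalled members NOTCH1 (2 copies), JAG2, NOTCH3 and LFNG (1 each), and for the unmeasured MAML1 (3). The window used for RBPJ held none. It was 1 of 5 RefSeq windows of that gene, with a GC content of 34.4%, and the LFNG window was 1 of 2. The other windows of these genes are not described here. Of 35116 RefSeq windows of this length, 18.5% held ACGTG, 32.2% GCGTG and 20.8% TGGGAA. These shares were not matched for GC content, which was 68.4% in the JAG1 window. A match is a string of letters and not a measured binding site, and binding was not measured in this series.

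The knockdowns were first checked on their targets. HIF1A was at 9.25 to 9.64 on the HIF-1α knockdown arrays and 10.62 to 10.79 in wild type, leaving 42.5% of the signal (log2 difference -1.23, SE 0.15, limma adjusted p = 0.00241). EPAS1 was at 9.67 to 10.02 in HIF-2α knockdown and 10.83 to 11.26 in wild type, leaving 46.0% (log2 difference -1.12, SE 0.09, limma adjusted p = 0.000206). For each, the two-sided exact permutation p of 4 against 4 arrays was 0.0286, the smallest it can give. Of 10 measured hepatocyte markers, ALB (albumin) read 13.10 to 14.27 and AFP (alpha-fetoprotein) 12.53 to 13.54 over the arrays. APOA1, APOB, TTR, SERPINA1 and TF were at 10.60 or more on every array, and FGB ran from 7.78 to 10.56. TAT was lower, at 7.64 to 8.08, and CYP3A4 had a low signal, 6.40 to 6.75, on all arrays. HNF4A was not measured. Values are the authors' deposited log2 signals, and signals of different probe sets are not compared as transcript amounts. A gene is called changed when its Benjamini-Hochberg adjusted p over all 18404 genes is below 0.05. The number of arrays limits the precision, and the p-values reflect only how far these arrays scatter, which may be technical.

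Among the listed members, more were called between the 2 knockdowns than in either knockdown against wild type. HEY1, MAML2, JAG1 and HES1 were all lower in HIF-2α knockdown than in HIF-1α knockdown, by 1.34-fold to 1.75-fold, while JAG2, NOTCH1, NOTCH3, LFNG and RBPJ were not called in any comparison. Against wild type, MAML2 alone was called, as lower in HIF-2α knockdown. In HIF-1α knockdown no member was called against wild type. In these bulk samples, fewer cells expressing a gene and less RNA per cell cannot be told apart.

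**Figure D1:**
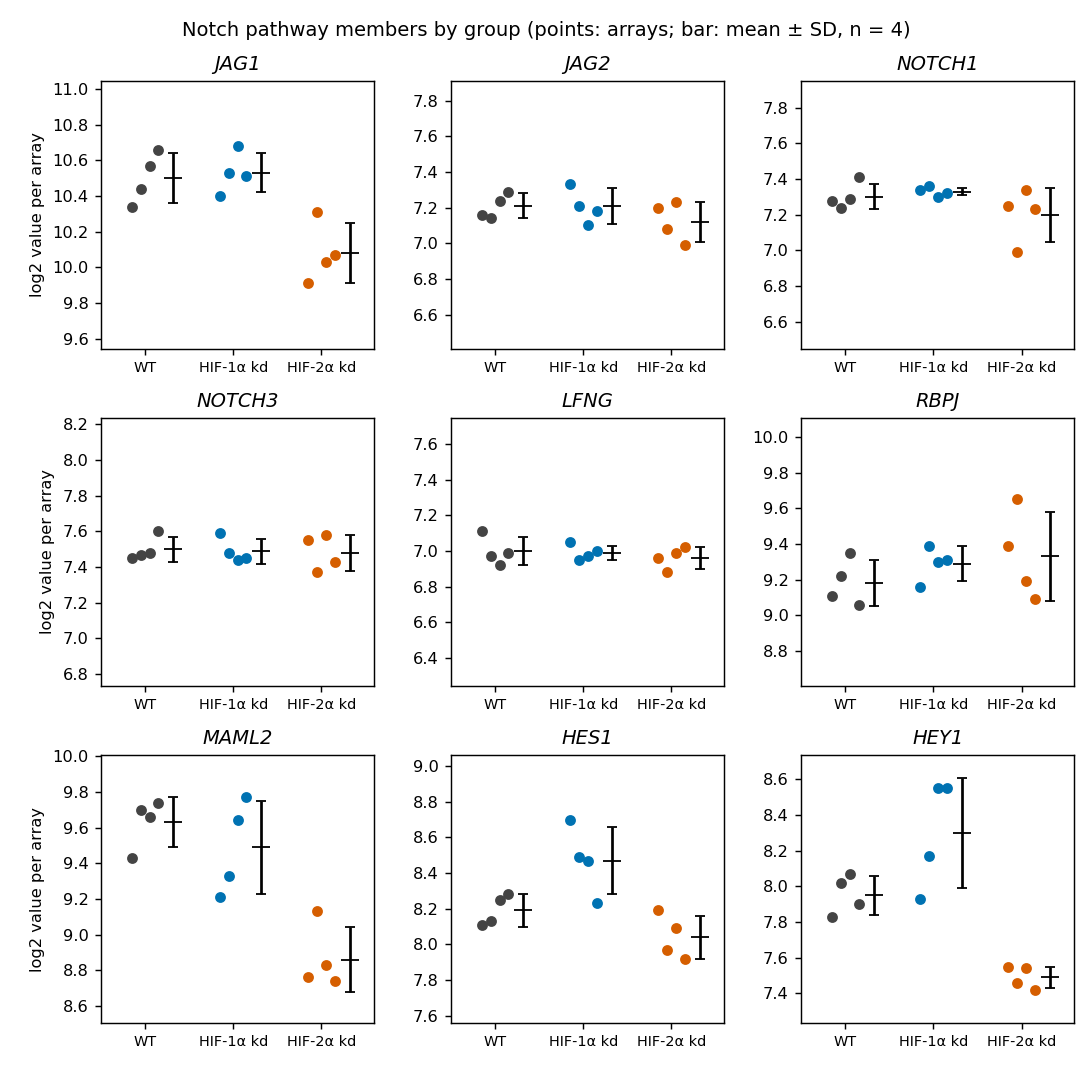
Log2 value of each of the 9 measured Notch members on every array, in panels that each span 1.5 log2 units, for wild type (WT) and the knockdowns (kd); points are arrays and the bar is the mean ± SD of 4. JAG1, MAML2 and HEY1 sit lower on all 4 HIF-2α knockdown arrays than on any other array, and JAG2, NOTCH1, NOTCH3 and LFNG overlap between all groups.

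Among the ligands, JAG1 read 10.34, 10.44, 10.57 and 10.66 on the wild type arrays and 10.40, 10.53, 10.68 and 10.51 in HIF-1α knockdown. In HIF-2α knockdown it read 9.91, 10.31, 10.03 and 10.07. All 4 HIF-2α knockdown arrays thus lay below all 8 others, with replicate 2 closest to them, while wild type and HIF-1α knockdown overlapped. The mean was 10.50 ± 0.14 (SD, n = 4) in wild type, 10.53 ± 0.11 in HIF-1α knockdown and 10.08 ± 0.17 in HIF-2α knockdown. JAG1 was called lower in HIF-2α than in HIF-1α knockdown (1.37-fold; log2 difference -0.45, SE 0.09, adjusted p = 0.0181). Against wild type the difference was of like size but missed the threshold (log2 difference -0.42, 95% interval -0.62 to -0.23, adjusted p = 0.0523). Without HIF-2α knockdown replicate 2 it passed, at -0.50 with an adjusted p of 0.0193, and leaving out the other arrays 1 at a time gave 0.052 to 0.144. It also passed after quantile normalization (-0.49, adjusted p = 0.00491), with the replicate block (adjusted p = 0.0283) and among genes above the median level (adjusted p = 0.046). The call between the knockdowns was lost without HIF-1α knockdown replicate 2 (adjusted p = 0.0525) or 3 (0.0754) and without HIF-2α knockdown replicate 3 (0.0503) or 4 (0.0547), at differences between -0.45 and -0.40. It was also lost with each array centred on its median (-0.43, adjusted p = 0.0595).

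JAG2, the second Jagged ligand, ran from 7.14 to 7.29 in wild type, 7.10 to 7.33 in HIF-1α knockdown and 6.99 to 7.23 in HIF-2α knockdown. The groups overlapped, and the interval of its difference from wild type was -0.15 to 0.15 in HIF-1α knockdown and -0.23 to 0.06 in HIF-2α knockdown. Its mean over all arrays, 7.18, lay below the median of all gene means, 7.69. At such a level a low signal cannot be told from background, since the table has no detection calls. The same holds for NOTCH1 (mean 7.28), NOTCH3 (7.49) and LFNG (6.98), so that 4 of the 9 measured members were below that median and 5 above.

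The receptors showed no difference larger than the spread between arrays. NOTCH1 ran from 7.24 to 7.41 in wild type, 7.30 to 7.36 in HIF-1α knockdown and 6.99 to 7.34 in HIF-2α knockdown, where replicate 2 was the low array. Its largest difference was between the knockdowns (-0.13, 95% interval -0.28 to 0.02, adjusted p = 0.488). NOTCH3 had a mean of 7.50 ± 0.07 (SD, n = 4) in wild type, 7.49 ± 0.07 with HIF-1α knocked down and 7.48 ± 0.10 with HIF-2α knocked down. LFNG, which extends sugars on Notch receptors and so alters which ligands they answer to, ran from 6.92 to 7.11 in wild type, 6.95 to 7.05 in HIF-1α knockdown and 6.88 to 7.02 in HIF-2α knockdown. For NOTCH3 and LFNG all intervals of the log2 differences lay between -0.15 and 0.13.

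In the nuclear complex, MAML2 showed the clearest fall. It read 9.43, 9.70, 9.66 and 9.74 on the wild type arrays, 9.21, 9.33, 9.64 and 9.77 in HIF-1α knockdown, and 8.76, 9.13, 8.83 and 8.74 in HIF-2α knockdown. The HIF-2α knockdown arrays lay below all others, again with replicate 2 the nearest, and the HIF-1α knockdown arrays spread over more than the wild type range. MAML2 was 1.70-fold lower in HIF-2α knockdown than in wild type, with 58.7% of the signal remaining (log2 difference -0.77, SE 0.12, adjusted p = 0.0111). It was called whichever single array was left out, with differences from -0.86 to -0.73 and an adjusted p of at most 0.0489. Against HIF-1α knockdown it was 1.54-fold lower (-0.62, SE 0.12, adjusted p = 0.0153). That call was lost without HIF-1α knockdown replicate 3 (-0.57, adjusted p = 0.0666) and without HIF-2α knockdown replicate 4 (-0.58, adjusted p = 0.0568). In HIF-1α knockdown the difference from wild type was -0.14 (95% interval -0.41 to 0.12, adjusted p = 0.70).

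RBPJ, the factor that MAML2 and the receptor's intracellular part bind, was not called. Its values ran from 9.06 to 9.35 in wild type, 9.16 to 9.39 in HIF-1α knockdown and 9.09 to 9.65 in HIF-2α knockdown. The widest spread was thus in HIF-2α knockdown, with replicate 2 the highest array. Its difference from wild type was 0.11 in HIF-1α knockdown (95% interval -0.12 to 0.34) and 0.14 in HIF-2α knockdown (-0.09 to 0.38). RBPJ was the 1 measured member with a higher mean in HIF-2α knockdown than in either other group. It had a second, dimmer probe set, with a mean of 7.22 in wild type, 7.26 in HIF-1α knockdown and 7.20 in HIF-2α knockdown, so the 2 probe sets ordered the groups differently and neither separated them.

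Both target genes had means above wild type in HIF-1α knockdown and below it in HIF-2α knockdown, and neither was called against wild type. HEY1 read 7.83, 8.02, 8.07 and 7.90 on the wild type arrays, 7.93, 8.17, 8.55 and 8.55 in HIF-1α knockdown and 7.55, 7.46, 7.54 and 7.42 in HIF-2α knockdown. The HIF-2α knockdown arrays were close together, with an SD of 0.06, and below all 8 others, while 3 of the 4 HIF-1α knockdown arrays lay above every wild type array. HEY1 was 1.75-fold lower in HIF-2α than in HIF-1α knockdown (log2 difference -0.81, SE 0.12, adjusted p = 0.00231), and it was called there whichever single array was left out (adjusted p at most 0.0115). Its mean of 7.49 in HIF-2α knockdown lay below the median of all gene means, where a low signal cannot be told from background, so the fold is that of the signals. Relative to wild type the mean was 0.34 higher in HIF-1α knockdown (95% interval 0.09 to 0.60, adjusted p = 0.188) and 0.46 lower in HIF-2α knockdown (95% interval -0.72 to -0.21, adjusted p = 0.0954). Neither of these passed, although without HIF-1α knockdown replicate 1 the first did (0.47, adjusted p = 0.0421), and the second did after quantile normalization (-0.49, adjusted p = 0.0456), with only the 2 groups in the fit (adjusted p = 0.0234) and with an intensity trend in the variance (adjusted p = 0.0269).

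HES1 read 8.11, 8.13, 8.25 and 8.28 on the wild type arrays, 8.70, 8.49, 8.47 and 8.23 in HIF-1α knockdown and 8.19, 7.97, 8.09 and 7.92 in HIF-2α knockdown. The knockdowns did not overlap each other, and wild type overlapped with both. HES1 was 1.34-fold lower in HIF-2α than in HIF-1α knockdown (log2 difference -0.43, SE 0.09, adjusted p = 0.0233). Against wild type it differed by 0.28 in HIF-1α knockdown (95% interval 0.08 to 0.47, adjusted p = 0.168) and by -0.15 in HIF-2α knockdown (95% interval -0.35 to 0.05, adjusted p = 0.576). The call between the knockdowns was lost when HIF-1α knockdown replicate 1 (adjusted p = 0.0577), 2 (0.0684) or 3 (0.0756) or HIF-2α knockdown replicate 2 (0.0566) or 4 (0.084) was left out, at differences between -0.43 and -0.35. It was also lost with only the 2 groups in the fit (adjusted p = 0.0542).

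**Figure D2:**
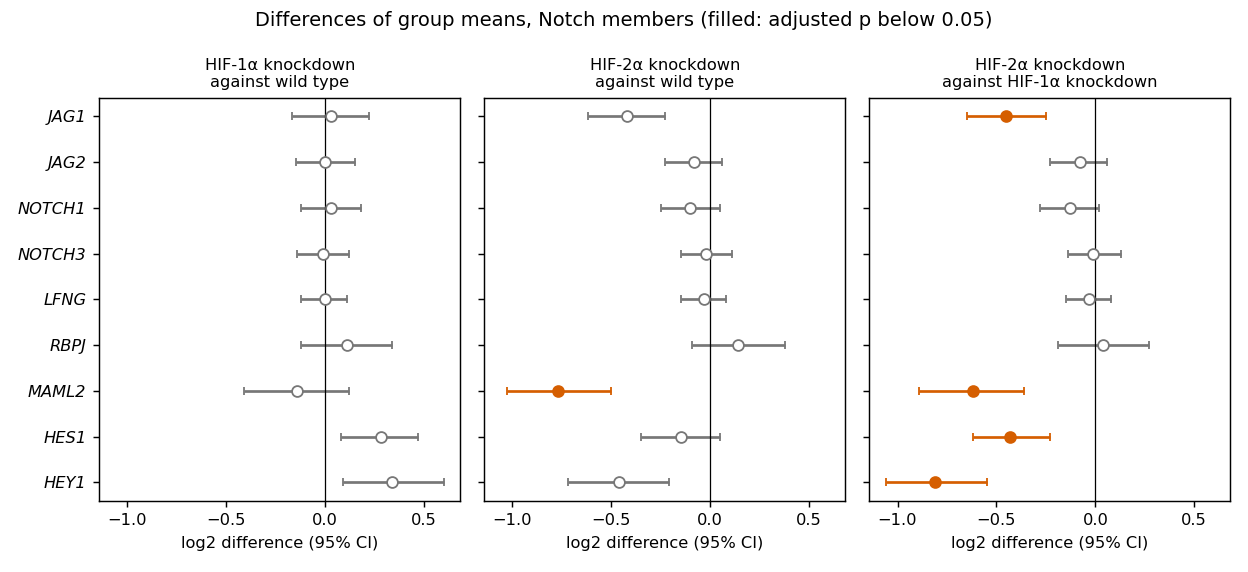
Difference of group means on the log2 scale for the 9 measured members in the 3 comparisons, with 95% intervals from limma; filled points have an adjusted p below 0.05. No member is filled in HIF-1α knockdown against wild type, MAML2 is in HIF-2α knockdown against wild type, and JAG1, MAML2, HES1 and HEY1 are between the knockdowns.

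Set against all genes, the member counts read as follows. Between the knockdowns 4 of 9 measured members were called lower and 0 higher, where 1.8% of all genes were called lower and 0.967% higher. The 4 became 1 without HIF-1α knockdown replicate 3, without HIF-2α knockdown replicate 4 or without the 3 arrays whose floor was raised, and 2 without HIF-1α knockdown replicate 2. At an unadjusted p below 0.05 there were 4 of 9 members and 13.6% of all genes. The same 4 members did not overlap between these groups and were lower in HIF-2α knockdown, as were 5.35% of all genes. In HIF-2α knockdown against wild type 1 of 9 was called lower, where 0.31% of all genes were called lower and 0.478% higher, and 3 did not overlap and were lower, as were 1.91% of all genes. At an unadjusted p below 0.05 there were 3 of 9 members and 12% of all genes. In HIF-1α knockdown against wild type 0 of 9 were called by limma, with 2, HES1 and HEY1, at an unadjusted p below 0.05, as were 13.2% of all genes. There 0.815% of all genes were called higher and 0.147% lower. The members' median difference was -0.13 between the knockdowns, -0.10 in HIF-2α knockdown and 0.03 in HIF-1α knockdown, against -0.01, -0.01 and 0.00 over all genes. The comparisons share arrays and are not independent of each other, and the members were listed with earlier results of these arrays known.

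The order of the 3 group means was HIF-1α knockdown, wild type, HIF-2α knockdown from high to low for JAG1, NOTCH1, HES1 and HEY1, the order of 19.8% of all genes. The mean was lowest in HIF-2α knockdown for 8 of the 9 measured members and for 37.7% of all genes. Of the 53 other pathway genes described below, it was lowest there for 25 (47.2%). The 8 members include JAG2, NOTCH1, NOTCH3 and LFNG, which were uncalled and at levels where a low signal cannot be told from background. Of these, NOTCH3 differed from wild type by -0.02 and LFNG by -0.03 in HIF-2α knockdown. For JAG1, HES1 and HEY1 the called difference was thus between the ends of the order. MAML2 had the order wild type, HIF-1α knockdown, HIF-2α knockdown, so its call between the knockdowns separated neighbours. HIF-2α knockdown and wild type did not overlap for JAG1 and HEY1 but missed the threshold.

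**Figure D3:**
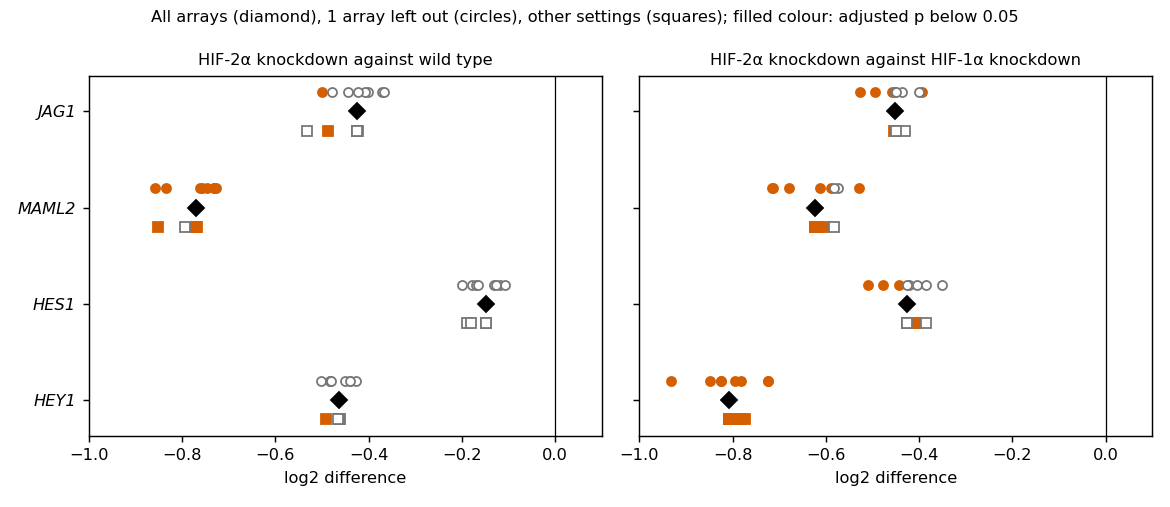
Log2 differences of JAG1, MAML2, HES1 and HEY1 in HIF-2α knockdown against wild type (left) and against HIF-1α knockdown (right), with all arrays (diamonds), with 1 array left out (circles) and under the other settings (squares); orange filling means an adjusted p below 0.05. Every value shown is negative, and HEY1 against HIF-1α knockdown and MAML2 against wild type keep their filling in all circles.

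The floor was raised on 3 arrays, namely replicate 4 of HIF-2α knockdown and the first 2 replicates of wild type: the 0.1 percentile of their values was 6.33 to 6.35, against 6.11 to 6.23 on the others. Without them, which leaves 2 wild type arrays, the MAML2 difference of HIF-2α knockdown was -0.79 (adjusted p = 0.125). Between the knockdowns HEY1 was then the 1 member called (-0.78, adjusted p = 0.0451), with MAML2 at -0.58 (adjusted p = 0.111), JAG1 at -0.45 (adjusted p = 0.0737) and HES1 at -0.39 (adjusted p = 0.136). HIF1A itself differed by -1.24 from wild type in HIF-1α knockdown in that fit, with an adjusted p of 0.103.

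Of 59 other genes of the pathway, listed by role, 53 were measured. None was called in either knockdown against wild type by limma (5 in HIF-1α and 6 in HIF-2α knockdown at an unadjusted p below 0.05), and 1 was called between the knockdowns. The 5 and 6 are 9.43% and 11.3% of the 53, against 13.2% and 12% of all genes, and the 1 call is 1.89%, against 1.8% of all genes called lower, so these shares lay below or near the background. That gene was KAT2B, which encodes an acetyltransferase recruited as a coactivator. It ran from 7.07 to 7.25 in HIF-1α knockdown and from 6.91 to 6.95 in HIF-2α knockdown, with wild type between 6.92 and 7.10, a level near the floor. Its signal was lower in HIF-2α than in HIF-1α knockdown (log2 difference -0.24, SE 0.05, adjusted p = 0.0355), and at that level it cannot be told from background, so no fold is given. The call was lost in 7 of the 8 fits that left out 1 array, all but that without HIF-1α knockdown replicate 3, with adjusted p up to 0.112. The median difference of the 53 genes was 0.00, -0.02 and -0.03 in HIF-1α knockdown, HIF-2α knockdown and between the knockdowns.

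TLE3, a corepressor of the Groucho family that HES proteins recruit, had the second smallest p between the knockdowns. It ran from 8.56 to 8.74 in HIF-1α knockdown and 8.28 to 8.42 in HIF-2α knockdown with no overlap (log2 difference -0.32, SE 0.08, adjusted p = 0.0533). HDAC1, a histone deacetylase of corepressor complexes, differed the other way (0.35, SE 0.12, adjusted p = 0.173). In HIF-2α knockdown against wild type the smallest p were those of DTX3L, an E3 ubiquitin ligase of the Deltex family, at 0.27 (adjusted p = 0.0953), NRARP, a Notch target and feedback inhibitor, at -0.22 (adjusted p = 0.165), and POGLUT1, which adds glucose to Notch receptors, at 0.26 (adjusted p = 0.241). In HIF-1α knockdown they were DTX3L at 0.22 (adjusted p = 0.145), KAT2B at 0.17 (adjusted p = 0.167) and ADAM17, a protease that cuts the receptor's outer part, at 0.22 (adjusted p = 0.252). NRARP was lower on all HIF-2α knockdown arrays, 7.43 to 7.59, than on the wild type arrays, 7.61 to 7.88.

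Between the knockdowns the other target genes had smaller differences than HES1 and HEY1, and their difference from those was not tested. HES2, HES4, HES5, HES7, HEY2, HEYL and NRARP, the 7 other targets measured, had differences between -0.11 and 0.14 between the knockdowns, with 0 called by limma and 1, HEY2 at 0.14, at an unadjusted p below 0.05 (adjusted p = 0.265). The 3 Delta ligands DLL1, DLL3 and DLL4 lay between -0.08 and 0.06, and NOTCH2 and NOTCH4 between -0.01 and 0.09. The 8 measured genes of receptor cleavage, which include the gamma-secretase subunits, lay between -0.17 and 0.12. None of these was called. HES2, HES5, HES7, HEY2, HEYL, DLL1, DLL3, DLL4, NOTCH4, PSEN2 and APH1B had group means of 6.65 to 7.63. These lay below the median of all gene means, 7.69, and NRARP, at 7.51 to 7.73, lay near it. At such levels a low signal cannot be told from background, so small differences there do not show that a gene was unchanged.

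**Figure D4:**
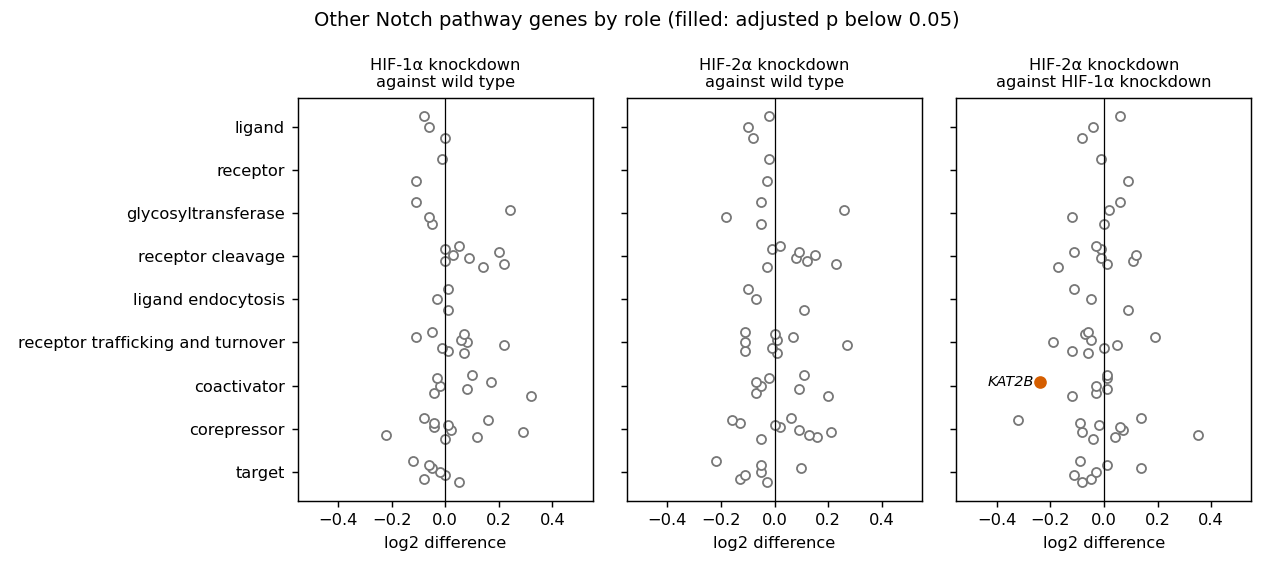
Log2 differences of the 53 other Notch pathway genes measured, 1 point per gene, by role and comparison; a filled point has an adjusted p below 0.05. KAT2B, a coactivator, is the 1 filled point, between the knockdowns, and most points lie within 0.2 of zero.

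Markers of bile duct cells, the fate that Notch directs in liver, were tested as a list of 7, chosen with earlier results of these data known. Of these, 6 were measured: SOX9, KRT7, KRT19, SPP1, EPCAM and CFTR. None was called by limma in any comparison, with 1, 1 and 2 of the 6 at an unadjusted p below 0.05 in HIF-1α knockdown, HIF-2α knockdown and between the knockdowns, where 13.2%, 12% and 13.6% of all genes were. SOX9 had a mean of 10.00 in wild type, 9.93 in HIF-1α knockdown and 10.01 in HIF-2α knockdown. KRT19 differed by -0.46 from wild type in HIF-1α knockdown (adjusted p = 0.16) and was 0.52 higher in HIF-2α than in HIF-1α knockdown (adjusted p = 0.0884), the opposite sign to that of HES1 and HEY1. SPP1, which encodes osteopontin, differed by -0.32 between the knockdowns, the same sign as HES1 and HEY1 (adjusted p = 0.397), and by -0.27 from wild type in HIF-2α knockdown (adjusted p = 0.529). EPCAM was 0.37 higher in HIF-2α than in HIF-1α knockdown (adjusted p = 0.136). Its arrays, 10.64 to 11.16 and 10.38 to 10.62, narrowly did not overlap. Of all 18404 genes, 687 likewise did not overlap and were higher in HIF-2α knockdown.

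The levels of 3 other lists are given beside these values, although few of their genes were called. The mean of 29 ribosomal protein genes was 11.61 to 11.90 per array in HIF-1α knockdown, 11.89 to 12.41 in wild type and 11.73 to 12.27 in HIF-2α knockdown. Its median difference between the knockdowns was 0.35, opposite in sign to the 4 called members, and 1, 0 and 1 of the 29 genes, RPL11 each time, were called in HIF-1α knockdown, HIF-2α knockdown and between the knockdowns. In that order 20, 1 and 18 had an unadjusted limma p below 0.05, against 13.2%, 12% and 13.6% of all genes. The mean of 10 hepatocyte markers was 10.78 to 10.99 in HIF-1α knockdown, below the 11.24 to 11.57 of wild type and the 11.05 to 11.55 of HIF-2α knockdown. Of these, FGB, the fibrinogen beta chain, was called in all 3 comparisons, with means of 9.72 in wild type, 7.97 in HIF-1α knockdown and 10.36 in HIF-2α knockdown. TAT, tyrosine aminotransferase, was called lower in HIF-2α than in HIF-1α knockdown (-0.29, adjusted p = 0.0193). Of the 10 hepatocyte markers, 7, 1 and 5 had an unadjusted limma p below 0.05 in the 3 comparisons, in the same order. No endothelial marker was called by limma in any comparison, with 0, 1 and 1 of 7 at an unadjusted p below 0.05. The mean of the 7 was 6.99 to 7.03 in HIF-2α knockdown and 7.10 to 7.12 in HIF-1α knockdown; PECAM1 differed by -0.44 between them (adjusted p = 0.0503), and CDH5, VWF, TEK, KDR, TIE1 and ESAM stayed between 6.58 and 7.27 on all arrays, near the floor. The part of these shifts in the member differences was not tested.

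For the 4 called members, the genes with the most similar pattern were sought by Pearson's r over the 12 arrays, which share the group differences, so these values are descriptions. HEY1 was most like KIF5A, a neuronal kinesin heavy chain (r = 0.983), TGFBR3, the TGF-β coreceptor betaglycan (0.956), and GCNT4, a glycosyltransferase (0.943). JAG1 was most like SORL1, a sorting receptor (0.966), LGALS3, which encodes galectin-3 (0.950), and FAM171A1 (0.942). MAML2 was most like CP, the ferroxidase ceruloplasmin (0.939), DSP, the desmosome protein desmoplakin (0.938), and CD24, a surface glycoprotein (0.932). HES1 was most like IRF2BP2, a transcriptional corepressor (0.967), CD7 (0.961) and SUSD2 (0.954).

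Within groups, after each group's mean was removed, r was between 0.67 for MAML2 and CP and 0.91 for HEY1 and KIF5A and for HES1 and IRF2BP2. The choice of these genes favours such values, since r over all arrays also holds the scatter within groups. All 12 of these genes were called lower in HIF-2α than in HIF-1α knockdown, as their choice by likeness to called members favours. Against wild type in HIF-2α knockdown, CP (-1.86, adjusted p = 0.000324), LGALS3 (-0.82, adjusted p = 0.0167), CD24 (-0.63, adjusted p = 0.0401) and DSP (-0.49, adjusted p = 0.0233) were called. The likest genes of JAG1 and MAML2 thus included genes called against wild type, and those of HES1 and HEY1 did not. Their choice favours this too, since likeness over all arrays carries each member's own group differences. For JAG1 it rests on LGALS3, with SORL1 at a limma adjusted p of 0.056 and FAM171A1 at 0.104.

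The r between the 4 members differed from pair to pair. JAG1 and MAML2 had r = 0.91 over the 12 arrays and 0.71 within groups. MAML2 and HEY1 had r = 0.80 and 0.72. HES1 went with HEY1 at r = 0.59 over all arrays and at -0.49 within groups, with MAML2 at 0.33 and -0.51, and with JAG1 at 0.52 and -0.17. JAG1 and HEY1 had r = 0.78 and 0.30. The r for HES1 with each of the other 3 was thus positive over all arrays and negative within groups, over the same 12 arrays. None of these r was tested, and so few arrays leave them imprecise.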

How the data were processed

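The file used holds the authors' deposited log2 values, 32321 probe sets by 12 arrays. The base was inferred from the range (5.93 to 15.05); for background correction, summarization and normalization, nothing was stated. Gene symbols came from the platform annotation and were updated through Entrez identifiers in a RefSeq table (GRCh38.p14), 19128 of 19158 with 1 symbol. The brightest probe set stood for each gene. limma 3.58.1 in R 4.3.3 (lmFit with 1 mean per group over all arrays, eBayes) gave differences, moderated SE and Benjamini-Hochberg adjusted p over 18404 genes, with no filter on low values. Promoter windows came from RefSeq. The members and lists were chosen with earlier results of these data known. Named were all members, HIF1A and EPAS1, other pathway genes called or among the 3 smallest p of a comparison, called markers, and the 3 genes most like each called member; KRT19, SOX9, EPCAM, SPP1, RPL11, HEY2, PECAM1 and other markers, ALB and AFP, and the other pathway genes given by range were named after their values were seen. Alternatives were quantile normalization, median centring, the 2 groups only, a replicate block, an eBayes trend, a level filter, the mean of probe sets, single arrays left out, and no raised-floor arrays. Same-numbered arrays did not consistently deviate together (r over genes above 0.1 in 5 of 12 pairs, from -0.171 to 0.637), so the numbers were not treated as pairs. Between wild type and HIF-1α knockdown, r was 0.17, 0.306, 0.637 and -0.039 for replicates 1 to 4, so a shared origin of some of these arrays is not excluded.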

Additional observations from a re-analysis of the deposited data

How the results depend on the processing

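The number of members called in HIF-2α knockdown against wild type was 1, and it was 3 after quantile normalization, 2 with only the 2 groups in the fit, 2 with the replicate block, 2 with an eBayes trend, 2 among genes above the median level and 0 without the 3 raised-floor arrays; leaving out single arrays gave 1 to 2. Between the knockdowns it was 4, it was 1 without the raised-floor arrays, and single arrays gave 1 to 4, with 1 without HIF-1α knockdown replicate 3 or HIF-2α knockdown replicate 4. In HIF-1α knockdown single arrays gave 0 to 1, the 1 being HEY1. For the other pathway genes in HIF-2α knockdown the count was 2 after quantile normalization and 0 to 1 with single arrays left out. Between the knockdowns it was 3 after quantile normalization, 2 with only the 2 groups, 2 with the trend, and 0 after median centring, above the median level (31 genes tested) and without the raised-floor arrays; single arrays gave 0 to 1. Over all genes, HIF-1α knockdown had 177 calls (150 higher, 27 lower), 85 after median centring (67 and 18), 396 with only the 2 groups and 22 without the raised-floor arrays; quantile normalization gave 140 higher and 114 lower, and single arrays 50 to 483. HIF-2α knockdown had 145 (88 higher, 57 lower), 404 after quantile normalization (141 and 263), 72 after median centring (34 and 38), 64 with only the 2 groups, 286 with the trend, 37 without the raised-floor arrays and 61 to 219 with single arrays left out. Between the knockdowns there were 509, 888 after quantile normalization, 337 after median centring, 259 without the raised-floor arrays, and 211 to 618. The cause of these changes was not tested; fits without arrays have fewer samples. With the replicate block the added member in HIF-2α knockdown against wild type was JAG1 (-0.42, adjusted p = 0.0283), and no other member call changed.

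Signs changed only for differences that were not called in any of these fits. In HIF-1α knockdown quantile normalization put JAG1 at -0.032. Without the raised-floor arrays JAG1 was at -0.083, NOTCH1 at -0.017 and LFNG at 0.038. With single arrays left out JAG1 ran from -0.027 to 0.079, LFNG from -0.027 to 0.034 and NOTCH3 from -0.047 to 0.021. In HIF-2α knockdown HDAC1 was at -0.025 without the raised-floor arrays, and single arrays gave LFNG from -0.058 to 0.003 and NOTCH3 from -0.051 to 0.019. Between the knockdowns NOTCH3 was at 0.01 after quantile normalization, 0.014 after median centring and 0.009 without the raised-floor arrays, RBPJ was at -0.014 with the mean of its probe sets, and single arrays gave NOTCH3 from -0.039 to 0.031, RBPJ from -0.069 to 0.119, ADAM17 from -0.078 to 0.052 and POGLUT1 from -0.069 to 0.088.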
